A study of Arabidopsis thaliana with 20 samples.

Results

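Transcripts of 5 nuclear genes for factors that build the complexes of the thylakoid membrane were followed in Arabidopsis thaliana: LPA19 (AT1G05385), CCS1 (AT1G49380), CCB3 (AT5G36120), PAC (AT2G48120) and ATAB2 (AT3G08010). They were chosen by what their proteins do, with earlier results of these data known. Each was the sole gene of 1 array feature, which makes 5 of the 692 single-gene features among 3439 features on the array. All 5 passed the filter on missing values and were among the 3287 features tested. CCB3 passed it narrowly, with 6 values above 0 in hcf145 and 5 in WT where at least 5 were required.

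Total RNA was measured on 10 arrays titled hcf145, a mutant whose photosystem I assembly is impaired according to the labels, and on 10 arrays titled WT, both in the ecotype Wassilevskija. For the mutant, the field for the RNA source names gun5 instead of hcf145. The name hcf145 could not be checked, because HCF145 was the sole gene of 0 features, and the name gun5 was not checked either. Age, tissue and growth conditions are not given in the labels. Values are the deposited intensities on a linear scale whose unit is not stated, and the number of arrays limits their precision. Array sums lay between 3319 and 3612 in hcf145 and between 3476 and 3640 in WT. Within a group, each of the 20 arrays resembled the array of the adjacent number most (1 with 2, 3 with 4 and so on). Adjacent arrays were therefore averaged, which left 5 averages per group. Nothing in the labels says that these averages come from separate plants. The p-values therefore rest on the spread between averages alone, which may be technical.

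The photosynthetic complexes of the thylakoid contain subunits encoded in the nucleus and in the plastid, and many nuclear factors help to put them together. Some protect plastid RNA or start its translation, some attach haem, and some fold or process subunits in the membrane. LPA19 is a homologue of Psb27 in the thylakoid lumen that assists the processing of the precursor of D1, a reaction centre subunit of photosystem II. CCS1 belongs to the machinery that attaches haem to c-type cytochromes, such as cytochrome f. CCB3 helps to attach a further haem to cytochrome b6. PAC, named after the pale cress mutant, is needed for plastid RNA and for chloroplast development. ATAB2 is an RNA-binding protein that promotes the translation of plastid photosystem messages, and its counterpart in the green alga Chlamydomonas is Tab2. HCF145 itself is known for its part in the accumulation of the plastid transcript that encodes the large photosystem I subunits.

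None of the 5 genes passed the test between hcf145 and WT. With the averages, 0 of 5 had a limma adjusted p under 0.05, where 7.64% of all tested features did (251 of 3287, 121 higher and 130 lower in hcf145). With the 20 arrays counted separately, again 0 of 5 passed, where 29.3% of features did. At an unadjusted limma p under 0.05, 1 of 5 passed with the averages (CCB3), beside 26.3% of features. With the 20 arrays, 2 of 5 did (LPA19 and CCB3), beside 40.0% of features. Leaving out 1 average at a time gave between 49 features (without WT arrays 7 and 8) and 254 features (without WT arrays 9 and 10), and none of the 5 genes passed in any of the 24 other settings that tested it. Of the 5 differences, 4 were positive and 1 negative, with a median of 0.45 on the log2 scale, beside -0.06 over all features. The 4 include PAC at 0.03, whose sign reversed in 4 of 24 other settings, and CCB3, whose signal was near the bottom of the scale. As deposited, PAC and ATAB2 were both negative (-0.24 and -0.82). A shared direction of the 5 genes was not tested. All 10 averages were present for 4 of the genes, and in 0 of these 4 were the groups free of overlap, beside 10.3% of features. In bulk RNA, fewer cells that express a gene and less RNA of it per cell cannot be told apart.

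**Figure D1:**
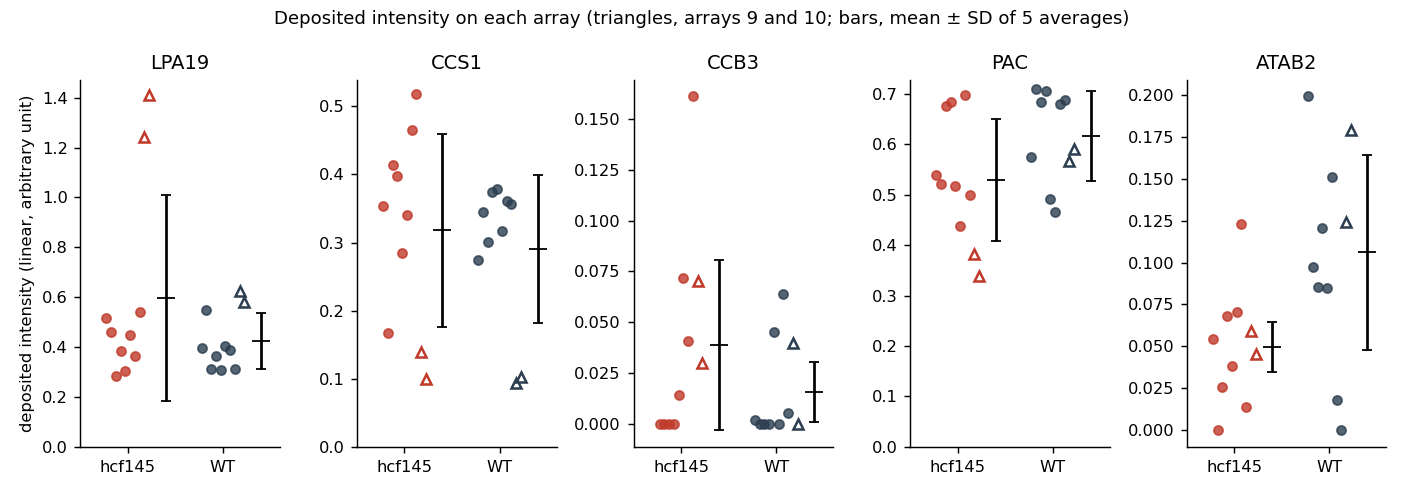
Deposited intensity (linear, arbitrary unit) of the 5 genes on every array, hcf145 left of WT in each panel. Circles are arrays 1 to 8, open triangles arrays 9 and 10, and bars the mean ± SD of the 5 averages of adjacent arrays. The groups overlap in every panel, LPA19 reaches 1.24 and 1.41 on hcf145 arrays 9 and 10, and CCB3 lies at 0 on 4 hcf145 and 5 WT arrays.

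Among the factors of photosystem II, LPA19 had averages of 0.490, 0.334, 0.377, 0.454 and 1.33 in hcf145. In WT they were 0.474, 0.338, 0.357, 0.352 and 0.603. In both groups the highest average was that of arrays 9 and 10, and the other averages of the groups lay close together. The mean intensity was 0.596 ± 0.413 in hcf145 and 0.425 ± 0.113 in WT (SD, n = 5 averages each). The normalised log2 difference was 0.60 ± 0.37 (SE; hcf145 minus WT), with a 95% interval from -0.21 to 1.41 and a limma adjusted p of 0.323. As a fold, the interval ran from 0.865 to 2.66. In the values as deposited the difference was 0.32 (limma adjusted p = 0.592). For averages of the same array numbers, hcf145 was above WT in 5 of 5 on the normalised log2 scale, by 0.37 to 0.95. This did not hold for the deposited averages, where hcf145 lay below WT on arrays 3 and 4 (0.334 against 0.338). The gene's position on the array had a median at the 59.6th percentile in hcf145 and the 42.7th in WT (10 arrays each). Like quantile normalisation, this position compares a gene with the other features of its array, so it is no independent check of the normalised difference. As deposited, the median feature was lower in hcf145 (-0.32), which can raise the position of a gene whose intensity is unchanged.

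LPA19 has a paralog on the array, PSB27 (AT1G03600), whose protein acts in the assembly and repair of photosystem II. PSB27 had averages of 1.13, 1.86, 1.43, 2.71 and 2.37 in hcf145, against 2.32, 2.58, 3.08, 4.33 and 1.56 in WT. Its log2 difference was -0.50 ± 0.33 (SE, limma adjusted p = 0.363), so neither homologue passed. The comparison of the difference between both genes was chosen after their values had been seen. The log2 ratio of LPA19 to PSB27 averaged -1.70 ± 0.78 in hcf145 and -2.80 ± 1.07 in WT (SD over 5 averages each). The difference of 1.10 had a two-sided exact permutation p of 0.0952, where 252 splits allow no p below 0.00794. With the values as deposited it was 0.85 (two-sided exact permutation p = 0.135), so neither scale passed. For averages of the same array numbers the ratio was higher in hcf145 in 5 of 5 on both scales, by 0.49 to 1.82 after normalisation. The permutation does not use the numbers, which were not taken as pairs.

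One other gene of the photosystem II list, AT1G54500, rose. It averaged 2.26 ± 0.449 in hcf145 and 1.12 ± 0.124 in WT (SD, n = 5 averages each), and its lowest hcf145 average, 1.88, lay above its highest WT average, 1.27. The log2 difference was 1.10 ± 0.20 (SE, limma adjusted p = 0.0115). It stayed past the threshold in 24 of 24 other settings, with limma adjusted p from 8.94e-07 to 0.0372. The tables used here give this locus no symbol. Of the 24 genes of the list, 3 were the sole gene of a tested feature (LPA19, PSB27 and AT1G54500). Of these 3 genes, 1 rose, 0 fell and 2 did not pass, with a median difference of 0.60. Over all tested features, 7.64% passed and the median difference was -0.06.

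**Figure D2:**
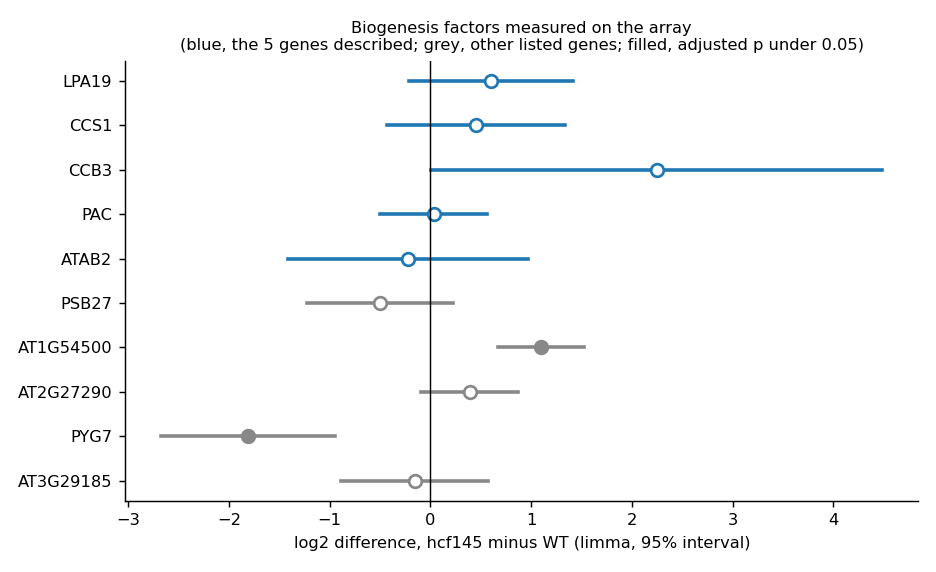
Log2 difference, hcf145 minus WT, with its 95% interval from limma, for the 5 genes (blue) and the other genes of the lists that were measured (grey). Filled points have an adjusted p under 0.05. The 5 genes are all open, AT1G54500 is filled at 1.10 and PYG7 at -1.81, and CCB3 has the widest interval.

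For the assembly of cytochromes, CCS1 had averages of 0.261, 0.405, 0.313, 0.491 and 0.119 in hcf145. Its averages in WT were 0.309, 0.338, 0.347, 0.359 and 0.0982. The groups overlapped, and arrays 9 and 10 gave the lowest average in both. The mean intensity was 0.318 ± 0.142 in hcf145 and 0.290 ± 0.109 in WT (SD, n = 5 averages each). The normalised log2 difference was 0.45 ± 0.41 (SE), with a 95% interval from -0.43 to 1.33 and a limma adjusted p of 0.505. This interval corresponds to folds between 0.740 and 2.52, so neither equal levels nor a doubling lay outside it. In the values as deposited the difference was 0.10. The median position of CCS1 on the array was the 49.0th percentile in hcf145 and the 35.1st in WT. As for LPA19, this position is no independent check of the normalised difference.

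CCB3 was near the bottom of the scale. It was listed at 0 on 4 of 10 hcf145 arrays (1 to 4) and on 5 of 10 WT arrays. On 7 hcf145 arrays and on all 10 WT arrays it lay under 0.0653, the 10th percentile of all deposited values. The other hcf145 values ran from 0.0141 on array 5 to 0.161 on array 8, and those in WT from 0.00216 on array 1 to 0.0637 on array 7. Both groups thus held zeros and low values, and the groups overlapped. The normalised log2 difference was 2.25 ± 0.99 (SE; 3 averages in hcf145 and 4 in WT had a value), with a 95% interval from 0.01 to 4.49 and a limma adjusted p of 0.190. Its size depended on the treatment of values near 0. It was 0.51 with a pseudocount of 0.0653, 3.67 with each zero replaced by its array's lowest value above 0, and 1.26 without the average of WT arrays 1 and 2, which rested on the single value of 0.00216. A difference in CCB3 was therefore not measurable at this signal.

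The remaining measured gene of the cytochrome list, AT2G27290, was bright. Its averages ran from 29.6 to 56.9 in hcf145 and from 20.2 to 34.1 in WT. Its log2 difference of 0.39 ± 0.22 (SE) did not pass with the averages (limma adjusted p = 0.278), while it did with the 20 arrays counted separately (limma adjusted p = 0.0359). It passed in 2 of 24 other settings, over which the difference ran from 0.29 to 1.03, and as deposited it was 0.75 (limma adjusted p = 0.0746). Of the 9 genes of this list, 3 were measured, and 0 rose, 0 fell and 3 did not pass, with a median of 0.45. The share that passed over all tested features was 7.64%. Of 5 genes for cytochrome b6f subunits and plastocyanin, 0 were the sole gene of a tested feature, so the levels of the cytochrome complex itself were not analysed here.

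Among the plastid RNA and translation factors, PAC had the difference with the smallest SE of the 5 genes. Its averages were 0.530, 0.679, 0.477, 0.599 and 0.360 in hcf145, and 0.642, 0.695, 0.479, 0.684 and 0.578 in WT. Except on arrays 9 and 10, where hcf145 was lowest, the averages of the groups lay in the same range. At the same array numbers the deposited average of hcf145 was always the lower one, though barely on arrays 5 and 6 (0.477 against 0.479). After normalisation it was higher at 3 of these numbers and lower at 2. The mean intensity was 0.529 ± 0.121 in hcf145 and 0.615 ± 0.0891 in WT (SD, n = 5 averages each). The normalised log2 difference was 0.03 ± 0.24 (SE), with a 95% interval from -0.50 to 0.56 and a limma adjusted p of 0.945. As folds, this interval ran from 0.709 to 1.48, so a 2-fold change in either direction lay outside it. The sign depended on the scaling, with -0.24 in the values as deposited (limma adjusted p = 0.517), where the median feature stood at -0.32. On the arrays, PAC lay at a median of the 64.0th percentile in hcf145 and the 65.7th in WT.

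ATAB2 was dim. Its averages were 0.0272, 0.0470, 0.0543, 0.0683 and 0.0525 in hcf145, and 0.148, 0.103, 0.118, 0.00897 and 0.152 in WT. It was listed at 0 on 1 array of each group, hcf145 array 2 and WT array 8. The hcf145 averages lay below those of WT for 4 of 5 pairs of numbers, and WT arrays 7 and 8 were the exception, with the lowest average of all. The mean intensity was 0.0499 ± 0.0149 in hcf145 and 0.106 ± 0.0580 in WT (SD, n = 5 averages each), and 7 hcf145 arrays but 2 WT arrays lay under the 10th percentile of all values.

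The normalised log2 difference of ATAB2 was -0.22 ± 0.55 (SE), with a 95% interval from -1.41 to 0.97 and a limma adjusted p of 0.821. The log2 average of WT arrays 7 and 8 rested on the single value of array 7 (0.0179), and that of hcf145 arrays 1 and 2 on array 1 (0.0544). Without the average of WT arrays 7 and 8 the difference was -0.81 ± 0.29 (SE, limma adjusted p = 0.143). Without WT arrays 9 and 10 it was 0.092 (limma adjusted p = 0.930). Single WT averages thus set both its size and its sign, and no setting took it past the threshold. In the values as deposited the difference was -0.82 (limma adjusted p = 0.288). Of the 34 genes of the RNA and translation list, PAC and ATAB2 were the only 2 measured as sole genes of a feature. Of these, 0 of 2 passed, beside 7.64% of all tested features, with a median of -0.09.

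**Figure D3:**
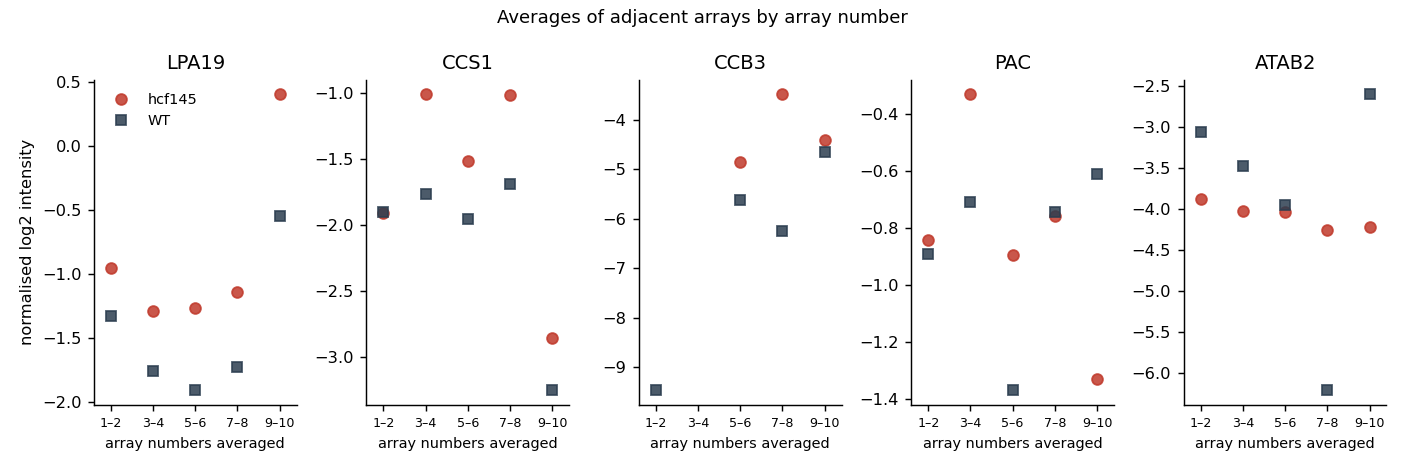
Normalised log2 intensity of each average of adjacent arrays, by array number, for hcf145 (red circles) and WT (dark squares). LPA19 is highest and CCS1 lowest on arrays 9 and 10 in both groups, and PAC on arrays 9 and 10 is low in hcf145 but not in WT. ATAB2 in WT stands at -6.21 on arrays 7 and 8, a value from array 7 alone. CCB3 has no value on hcf145 arrays 1 to 4 and WT arrays 3 and 4.

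Arrays 9 and 10 stood apart for LPA19 and CCS1 in both groups. LPA19 read 1.24 and 1.41 there in hcf145, against 0.283 to 0.541 on hcf145 arrays 1 to 8, and 0.624 and 0.582 in WT, against 0.309 to 0.549 on WT arrays 1 to 8. CCS1 read 0.139 and 0.0997 in hcf145, against 0.167 to 0.518 on the other hcf145 arrays, and 0.0942 and 0.102 in WT, against 0.274 to 0.378 on the other WT arrays. LPA19 was thus raised and CCS1 lowered on the same arrays whatever the genotype. Leaving out arrays 9 and 10 in both groups gave log2 differences of 0.51 ± 0.20 for LPA19 (SE, limma adjusted p = 0.119) and 0.46 ± 0.24 for CCS1 (SE, limma adjusted p = 0.223). Without these arrays in 1 group alone the differences moved further. LPA19 was at 0.29 without hcf145 arrays 9 and 10 and at 0.83 without WT arrays 9 and 10. CCS1 was at 0.75 without hcf145 arrays 9 and 10, at 0.17 without WT arrays 9 and 10 and at 0.29 without hcf145 arrays 3 and 4. None of these values passed the test.

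Over the 10 averages, the deviations of LPA19 and CCS1 from their group means had a Pearson r of -0.92. Without arrays 9 and 10 it was -0.37 over 8 averages, so the opposite course rested on those arrays. The other 5 pairs among LPA19, CCS1, PAC and ATAB2 had r between -0.37 and 0.37. Without arrays 9 and 10 these ran from -0.27 to 0.57, highest for CCS1 with PAC. CCB3 had too few values for this comparison. These points share their arrays and their normalisation, and the values are given as a description.

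Of 626 other single-gene features, those whose deviations were most like LPA19 were AT4G32340 (r = 0.97), AT2G13690 (r = 0.96) and AT3G54550 (r = 0.95). Without arrays 9 and 10 their r was 0.84, 0.63 and 0.29 over 8 averages. Closest to CCS1 were AT3G27110, AT3G02690 and AT1G11820, with r from 0.93 to 0.95, or 0.80 to 0.83 without arrays 9 and 10. Closest to PAC were AT5G34870 (r = 0.91), AT4G27510 and AT2G04790 (r = 0.81 and 0.80). Without arrays 9 and 10 these were 0.89, 0.66 and 0.62. Closest to ATAB2 were AT3G51510, AT5G49590 and AT1G65370, with r from 0.85 to 0.86 with or without arrays 9 and 10. The largest deviation of ATAB2 was that of WT arrays 7 and 8, at -6.21 against a WT mean of -3.86. It rested on array 7 alone, and r without it was not computed. All these r are the highest among 626 features over 10 averages, and are high by that selection. None of these 12 genes passed the test between hcf145 and WT in limma, where 7.64% of all tested features did. The lowest limma adjusted p among the 12 was 0.0640, for AT3G27110.

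For the other complexes, the photosystem I list had 1 of 8 genes measured and the plastid ATP synthase list 1 of 3. PYG7 (AT1G22700), which assists the assembly of photosystem I in the thylakoid, fell. It averaged 0.268 ± 0.0955 in hcf145 and 0.923 ± 0.143 in WT (SD, n = 5 averages each), a log2 difference of -1.81 ± 0.40 (SE, limma adjusted p = 0.0243). The call held in 19 of 24 other settings. The limma adjusted p was 0.0530 without WT arrays 1 and 2, 0.0583 without WT arrays 7 and 8, 0.0576 without arrays 9 and 10, 0.114 with odd-numbered arrays only and 0.0772 with adjacent arrays as a random block. AT3G29185 of the ATP synthase list had a log2 difference of -0.15 ± 0.33 (SE) and stayed below the threshold of the test (limma adjusted p = 0.798). Over all lists, 10 of 83 genes were measured, the 5 described and 5 others. Of these 10 genes, 1 rose, 1 fell and 8 did not pass, where 7.64% of all tested features passed. Whether the 5 genes differ from PYG7 or AT1G54500 in their response was not tested.

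**Figure D4:**
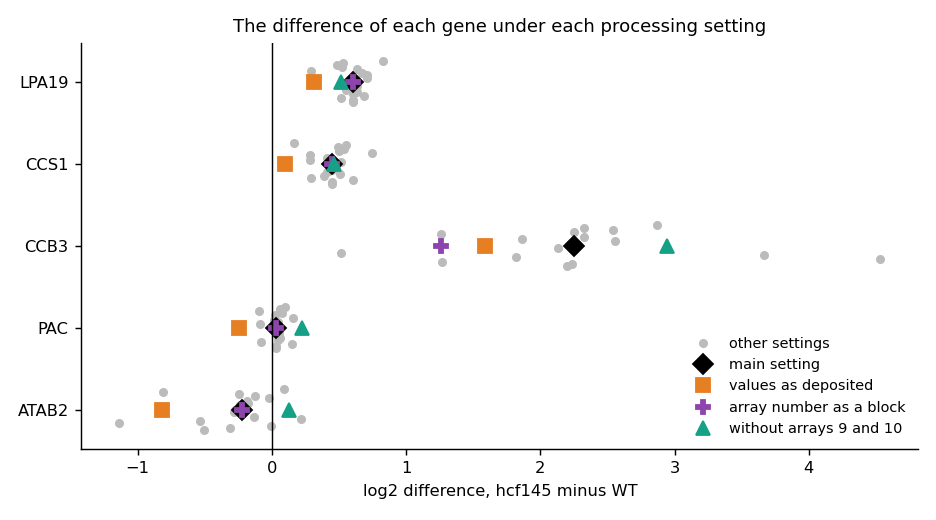
Log2 difference, hcf145 minus WT, of each gene under every processing setting (grey, settings not named in the legend, including those that leave out 1 average). LPA19, CCS1 and CCB3 lie above 0 in all settings shown, PAC and ATAB2 on both sides of 0, and CCB3 spreads from 0.51 to 4.53.

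The genes differed in the precision of their measurement. The SE of PAC, 0.24, was larger than that of 17.0% of the tested features, that of LPA19 than 69.3%, that of CCS1 than 76.1%, that of ATAB2 than 90.4% and that of CCB3 than 99.3%. The median SE over all features was 0.31. For 4 of the 5 genes, the difference was thus measured less precisely than that of the median feature.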

How the data were processed

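Arabidopsis total RNA was hybridised to 20 arrays, 10 titled hcf145 and 10 titled WT, and groups and numbers came from the titles. The deposited table gives 1 linear intensity per feature and array. That unit follows from the values alone, and the authors' background correction, scaling and averaging of spots are not given in the sources used here. Gene names came from the annotation table of the platform (692 with 1 gene, 870 with several, 1877 with none). Of the 692, 690 matched RefSeq's gene table of assembly TAIR10.1, used for names only. No sequences or coordinates were used here.

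Values at or below 0 were set missing, the rest taken to log2, and 152 features left out that had under 5 values in a group. The 20 arrays were quantile normalised, adjacent numbers of a group averaged (a single value where the other was missing), and hcf145 minus WT tested with limma 3.58.1 in R 4.3.3 (lmFit, eBayes, two-sided, Benjamini-Hochberg over 3287 features, threshold 0.05). Intensity means and SDs use the deposited values with zeros kept. The fit was tested on simulated data.

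The 5 genes, the gene lists, the averaging and the tests were chosen with earlier results of these data known. Genes named are the 5, every measured gene of the lists, PSB27, and per gene the 3 single-gene features with the highest Pearson r of deviations from the group means. The settings tried were other ways to count the arrays, scaling, zeros, filters, variance models, the array number as a block, arrays 9 and 10 left out, and each average left out. The order of filter and normalisation was added after the data had been seen. Same-numbered arrays were to count as paired across groups only if their deviations correlated over 0.1 for every number. The correlations ran from 0.09 to 0.44, and number 3 alone fell short, so the numbers were not taken as pairs.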

Additional observations from a re-analysis of the deposited data

Results flagged for a closer look

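In 2 of the 9 groups of averages tested, 1 average lay far from the others. Its gap to the nearest average was 0.80 and 0.83 of the range. By chance about 5% of groups are flagged. The groups share arrays and normalisation and are not independent draws, so an excess over chance was not tested. LPA19 in hcf145 stood at 0.40 on the normalised log2 scale for arrays 9 and 10, while its other 4 averages ran from -1.29 to -0.95. CCS1 in WT stood at -3.25 for arrays 9 and 10, with the others from -1.95 to -1.69. Both concern the same array numbers, on which the same gene deviated in the same direction in the other group. The cause was not tested.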

How the results depend on the processing

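None of the 5 genes passed under any alternative (limma adjusted p from 0.0553 to 0.996 over 116 values), and 109 of the 116 kept the direction. PAC was at -0.084 with the second array of each pair alone and -0.24 as deposited, and ran from -0.093 (without WT arrays 5 and 6; -0.092 without hcf145 arrays 3 and 4) to 0.16 leaving 1 average out. ATAB2 was at 0.21 with zeros at the lowest positive value and 0.13 without arrays 9 and 10 of both groups, and ran from -0.81 to 0.092 (without WT arrays 9 and 10) leaving 1 average out. CCB3 and ATAB2 have missing values and were not in the fit on complete features. Their mean intensity was low, so they were not in the fit without the dimmest features either. The count of 251 features was 962 with 20 arrays counted separately, 429 with adjacent arrays as a random block, 142 and 138 with the first and the second array of each pair. It ran from 49 to 254 leaving 1 average out: 138, 106 and 110 without hcf145 arrays 3 and 4, 5 and 6, or 7 and 8, and 101, 115, 86 and 49 without WT arrays 1 and 2, 3 and 4, 5 and 6, or 7 and 8. With the replicate block it was 511, and LPA19 then had 0.60 ± 0.17 (SE, limma adjusted p = 0.0553). Correlations of same-numbered averages were 0.08 for arrays 3 and 4 and 0.31 to 0.53 for the others. Among single arrays, number 3 alone missed the limit of 0.1, at 0.0897. The numbers are therefore not shown to be pairs, but the choice rested on 1 number close to the limit. Higher in hcf145 were 121 of the 251 features, 65 of 356 as deposited and 117 of 191 with median centring. The causes were not tested. Signal limits CCB3 and ATAB2, which lay near 0.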
